A study of Danio rerio with 6 samples.

Results

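A set of 10 genes of the endoplasmic reticulum (ER) folding machinery and of its stress pathway, the unfolded-protein response, was followed in zebrafish (Danio rerio) embryos. The genes are hspa5, hsp90b1, xbp1, pdia4, pdia6, dnajc3a, canx, herpud1, sdf2l1 and manf. They were taken by exact gene symbol from a deposited table of 31624 genes; each symbol matched 1 row, and all 10 were among the 20555 genes that passed the filter on low counts. The study compared embryos with a Trdmt1 knockout, in 3 libraries, with wild-type control embryos, also in 3 libraries, to examine the role of Trdmt1, an RNA cytosine methyltransferase that acts on transfer RNAs. No treatment, embryo age, kind of allele or pooling of embryos is given in the labels used here.

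Secreted and membrane proteins are folded in the ER by chaperones, lectins and disulfide isomerases. When unfolded chains build up there, the sensors Ire1, Perk and Atf6 are released from the chaperone BiP and start the unfolded-protein response. Ire1 splices the xbp1 messenger into the form that codes for an active transcription factor, Atf6 is cut to release its own factor, and Perk slows translation and favours Atf4. The genes these factors induce include chaperones, isomerases and parts of the route that removes misfolded proteins. In zebrafish embryos the pathway is known for its high activity in secretory tissues such as the hatching gland, liver, notochord and cartilage.

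Whole-library facts bear on every value below. Reads counted in genes were 12877132 to 18721589 per library. The transcript of the targeted gene, trdmt1, measured 3.10, 2.60 and 1.08 RPKM in the control libraries; the knockout libraries measured 1.59, 1.40 and 1.07 RPKM, so the groups overlapped and the level does not check the labels. RPKM is the read count scaled to exonic length and to the library total. Knockout 3 stood apart: its log2 values correlated with those of the other libraries at 0.937 to 0.941 across genes, which are not independent replicates. Knockouts 1 and 2 were close to each other, their counts giving a chi-square per degree of freedom of 1.58, against 11.7 to 75.6 in the other 14 pairs. Separate clutches are not stated, so the p-values reflect the spread of these 6 libraries, which may be technical. In whole embryos, fewer cells of a type and less RNA per cell cannot be told apart.

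None of the 10 genes passed the threshold between knockout and control. Of them, 7 had a positive and 3 a negative log2 fold change, where 49.5% of all tested genes were positive. The median was 0.12, against a median of -0.004 over all tested genes. The genes hspa5 and herpud1 lay higher in every knockout library than in every control, and manf was lowest in knockout 3. The threshold was 0.05 for p from the quasi-likelihood test of edgeR after Benjamini-Hochberg adjustment, and it called 0.102% of all tested genes higher and 0.0146% lower in knockouts. At an unadjusted p under 0.05 there was 1 member, hspa5, higher, and none lower, where 4.06% of all tested genes were higher and 3.41% lower. DESeq2 also called 0 of the 10. The 95% intervals of the folds, which are not adjusted for the number of genes, ran from 0.733-fold at the lowest to 1.80-fold at the highest in the 9 genes other than manf. For manf the interval was 0.556-fold to 1.18-fold.

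**Figure D1:**
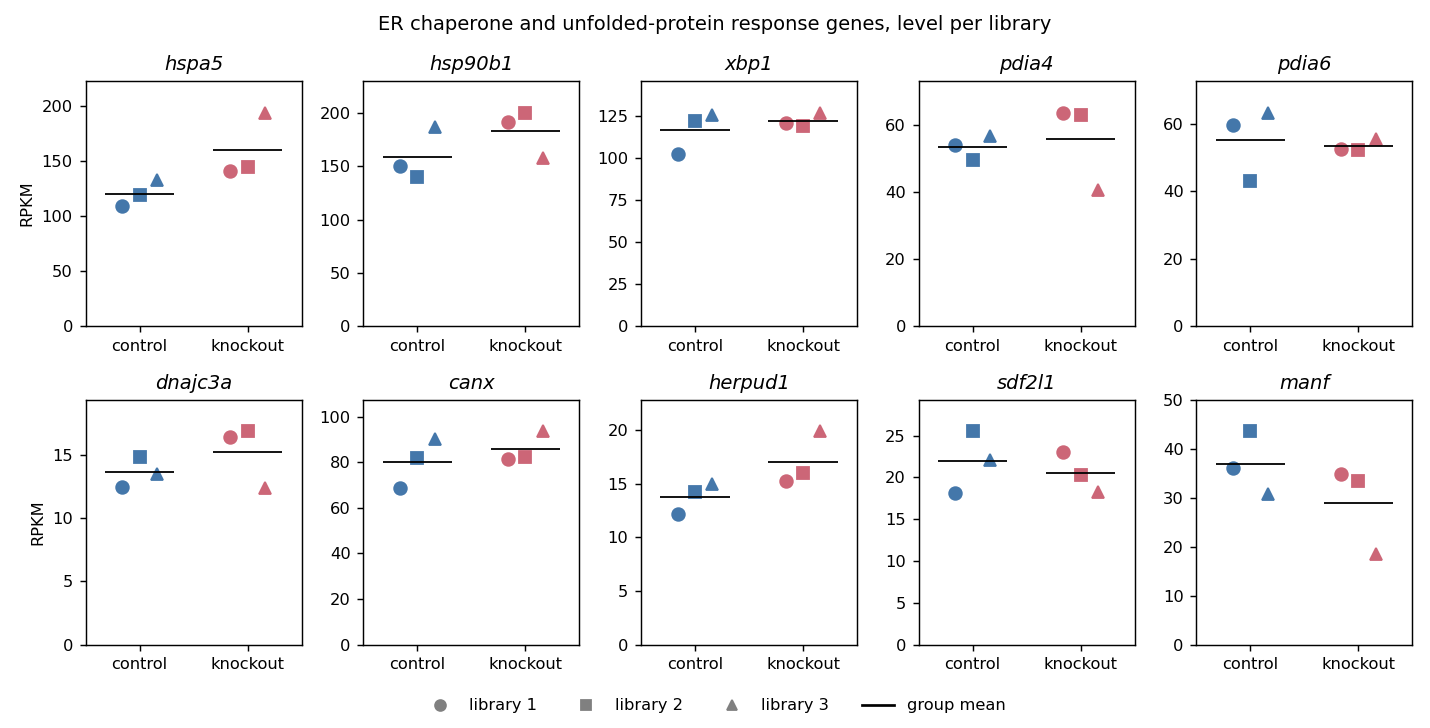
Levels of the 10 genes in RPKM (vertical axes, each from 0) in control (blue) and knockout (red) embryos; marker shapes give libraries 1, 2 and 3 of each group and the line is the mean of 3. The hspa5 and herpud1 knockout points all lie above the control points. The third knockout library (triangle) is the lowest point for manf, pdia4 and, by a narrow margin, dnajc3a.

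The central chaperone of the pathway is BiP, the ER member of the Hsp70 family, encoded by hspa5 (ENSDARG00000103846). It had control values of 109, 119 and 133 RPKM and knockout values of 141, 144 and 194 RPKM. All knockout libraries were thus above all controls, with the widest step in knockout 3. Group means were 120 ± 11.8 RPKM for controls and 160 ± 29.5 RPKM for knockouts (SD, n = 3 per group). The log2 fold change was 0.45 ± 0.18 (SE), a 1.36-fold difference with a 95% interval of 1.03-fold to 1.80-fold. It did not pass the threshold (edgeR adjusted p = 0.621), and by unadjusted p it was rank 1058 of the tested genes. An exact permutation test, two-sided and over all 20 ways to assign the libraries, gave p = 0.1, the smallest p that 3 against 3 allows. Without knockout 3 the log2 fold change was 0.29 (edgeR adjusted p = 0.425).

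The ER form of Hsp90, Grp94, is encoded by hsp90b1 (ENSDARG00000003570), and the deposited annotation also links it to otolith tethering. The control libraries held 150, 140 and 187 RPKM of it, and the knockout libraries 192, 200 and 158 RPKM. Knockouts 1 and 2 were above all controls and knockout 3 lay inside the control range. The log2 fold change was 0.24 ± 0.18 (SE; edgeR adjusted p = 0.798), and 0.34 ± 0.15 without knockout 3 (edgeR adjusted p = 0.407). The ratio of hspa5 to hsp90b1 RPKM was 0.710 to 0.850 in the controls, 0.735 and 0.721 in knockouts 1 and 2, and 1.23 in knockout 3. Knockout 3 was thus the only library in which hspa5 was the more abundant of the pair per length.

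Among the helpers of BiP, dnajc3a, sdf2l1 and manf differed from one another. The J-domain co-chaperone gene dnajc3a (ENSDARG00000041110), whose mammalian product P58IPK restrains Perk, read 12.5, 14.8 and 13.5 RPKM across controls 1, 2 and 3, against 16.4, 16.8 and 12.4 RPKM across knockouts 1, 2 and 3. As for hsp90b1, knockouts 1 and 2 were above all controls and knockout 3 was not. In RPKM knockout 3 was narrowly the lowest library, at 12.36 against 12.46 in control 1. On the log2 scale described below, which uses adjusted library totals, it lay inside the control range. The log2 fold change was 0.20 ± 0.17 (SE; edgeR adjusted p = 0.823), and 0.33 ± 0.13 without knockout 3 (edgeR adjusted p = 0.369). The gene sdf2l1 (ENSDARG00000035631), for a soluble ER protein that works with the J-protein Dnajb11 in mammals, measured 18.2, 25.5 and 22.1 RPKM in the control libraries; the knockout libraries measured 23.1, 20.3 and 18.2 RPKM. The 2 ranges nearly coincided, and the log2 fold change was -0.05 ± 0.17 (SE; edgeR adjusted p = 0.966). Without knockout 3 it was 0.03.

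The small ER protein Manf, which in mammals binds BiP and is secreted under ER stress, is encoded by manf (ENSDARG00000063177). Its transcript had control values of 36.2, 43.6 and 30.8 RPKM and knockout values of 35.0, 33.5 and 18.5 RPKM. Knockouts 1 and 2 lay inside the control range and knockout 3 was below every other library. The log2 fold change was -0.30 ± 0.24 (SE; edgeR adjusted p = 0.808), the lowest of the 10 genes, and -0.06 ± 0.15 without knockout 3 (edgeR adjusted p = 0.907). The manf to hspa5 ratio in RPKM was 0.232 to 0.366 in the 3 controls, 0.248 and 0.233 in knockouts 1 and 2, and 0.0957 in knockout 3.

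The protein disulfide isomerase genes pdia4 and pdia6, whose products form and shuffle disulfide bonds in folding chains, had different patterns. Control libraries 1 to 3 read 54.1, 49.7 and 56.7 RPKM of pdia4 (ENSDARG00000018491), and knockout libraries 63.6, 62.9 and 40.7 RPKM. Knockouts 1 and 2 were above all controls and knockout 3 below all of them, so that the log2 fold change over all libraries was 0.10 ± 0.20 (SE; edgeR adjusted p = 0.932). Without knockout 3 it was 0.28 ± 0.13 (edgeR adjusted p = 0.407). Control libraries 1 to 3 read 59.6, 43.1 and 63.2 RPKM of pdia6 (ENSDARG00000009001), and knockout libraries 52.6, 52.1 and 55.5 RPKM. All knockout values lay inside the control range, and the log2 fold change was -0.02 ± 0.18 (SE; edgeR adjusted p = 0.99).

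Calnexin, the membrane lectin that holds newly made glycoproteins until they fold, is encoded by canx (ENSDARG00000037488). It read 68.8, 82.0 and 90.0 RPKM across controls 1, 2 and 3, against 81.6, 82.3 and 93.5 RPKM across knockouts 1, 2 and 3. The groups overlapped, with a log2 fold change of 0.13 ± 0.16 (SE; edgeR adjusted p = 0.876), and 0.07 without knockout 3. The transcription factor gene xbp1 (ENSDARG00000035622), annotated in the deposited table to hatching and hatching gland development, measured 103, 122 and 125 RPKM in the control libraries; the knockout libraries measured 121, 119 and 127 RPKM. The groups overlapped here too, with a log2 fold change of 0.10 ± 0.15 (SE; edgeR adjusted p = 0.9), and 0.08 without knockout 3. A count per gene does not separate the spliced from the unspliced xbp1 messenger, so the activity of Ire1 was not measured.

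The gene herpud1 (ENSDARG00000024314) codes for an ER membrane protein with a ubiquitin-like domain that takes part in ER-associated degradation, the removal of misfolded proteins. It had control values of 12.2, 14.3 and 15.0 RPKM and knockout values of 15.3, 16.0 and 19.9 RPKM. All knockouts were above all controls, by a narrow margin in knockout 1 and a wider one in knockout 3. The log2 fold change was 0.34 ± 0.17, a 1.27-fold difference with a 95% interval of 0.977-fold to 1.65-fold (SE; edgeR adjusted p = 0.712; two-sided exact permutation p = 0.1). Without knockout 3 the log2 fold change was 0.22 (edgeR adjusted p = 0.577). Together hspa5 and herpud1 made 2 of 10 members with knockouts above controls without overlap, and 0 of 10 lay below, whereas 7.62% of all tested genes lay above and 7.44% below.

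**Figure D2:**
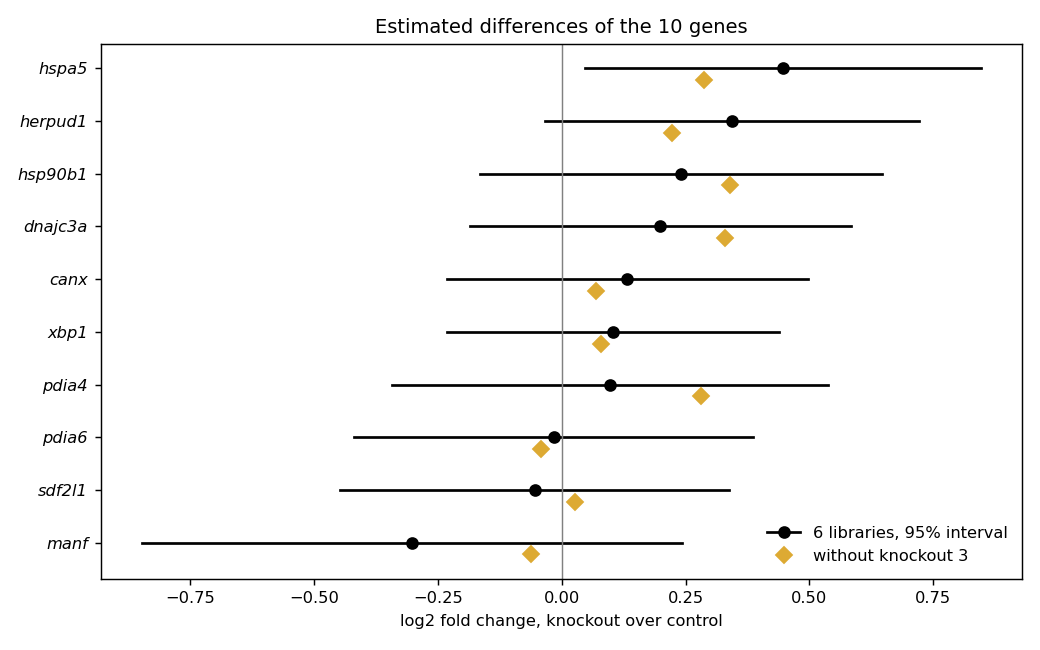
Log2 fold change of knockout over control for the 10 genes, with 6 libraries (black points, lines the 95% interval) and without knockout 3 (yellow diamonds). Values run from -0.30 for manf to 0.45 for hspa5, and leaving out knockout 3 lowers hspa5 and herpud1 and raises pdia4, dnajc3a, hsp90b1 and manf.

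Without knockout 3, 0.789% of all tested genes were called higher and 0.196% lower by the edgeR test, and still 0 of the 10 members were called in either direction. In that comparison 3 members, dnajc3a, hsp90b1 and pdia4, had an unadjusted edgeR p under 0.05, as did 2506 of all 20910 genes tested there. The edgeR adjusted p of these 3 members was between 0.369 and 0.407. The median log2 fold change of the 10 was then 0.15, against -0.02 over all genes. Since knockouts 1 and 2 nearly agreed, they may not count as independent samples. With the pair summed to 1 sample, 0 of 10 members passed, and the log2 fold change of hspa5 was 0.52 (edgeR adjusted p = 0.848).

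Within the knockout group the 10 genes fell on both sides. On the scale of log2 CPM (counts scaled to the library total) minus the mean of the controls, knockout 3 stood at 0.73 for hspa5 and 0.57 for herpud1, and at -0.94 for manf and -0.36 for pdia4. Knockouts 1 and 2 stood at 0.28 and 0.31 for hspa5, at 0.19 and 0.26 for herpud1, at -0.02 and -0.08 for manf, and at 0.29 and 0.28 for pdia4. On this scale knockout 3 was the highest of all 6 libraries for 4 members, hspa5, herpud1, canx and xbp1, and the lowest for 2, manf and pdia4. Over all tested genes it was the highest for 30.1% and the lowest for 31.9%, so that being extreme in knockout 3 was common among genes. With 1 library there is no test of this difference. Summed over the 10 genes, the level was 737 RPKM in knockout 3, 742 and 747 RPKM in knockouts 1 and 2, and 623, 654 and 736 RPKM in the controls. Control 3, at 735.8 RPKM, was thus only just below knockout 3, at 736.83 RPKM. The members took 0.16% to 0.194% of all counted reads.

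**Figure D3:**
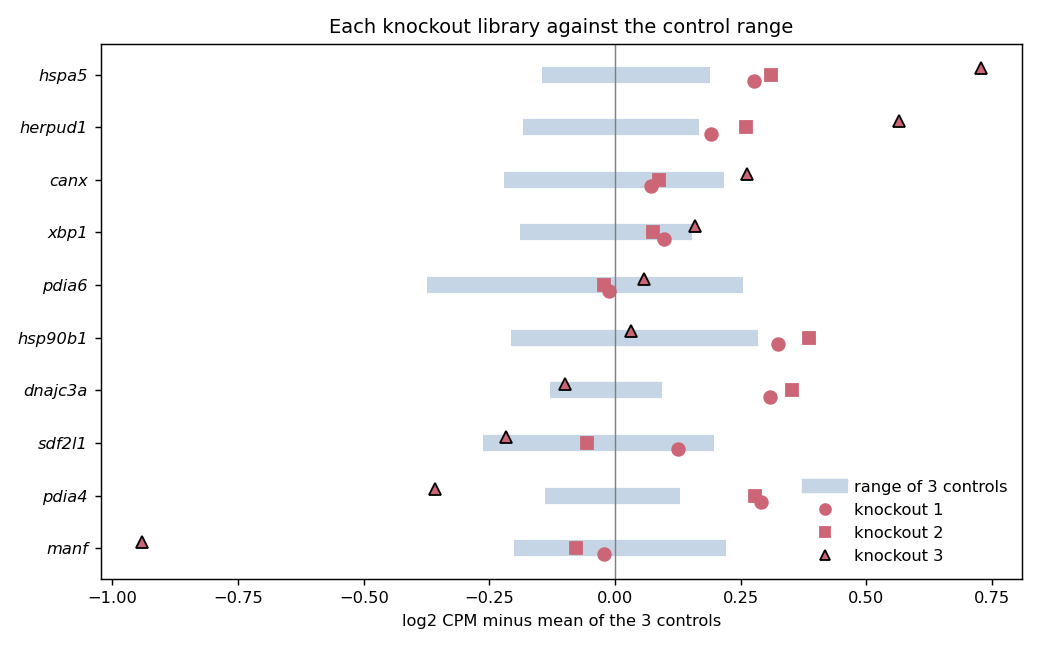
Log2 CPM of each knockout library minus the mean of the 3 controls for the 10 genes (horizontal axis), with the range of the controls as blue bars. Knockout 3 (black-edged triangles) runs from -0.94 for manf to 0.73 for hspa5, whereas knockouts 1 and 2 stay between -0.08 and 0.39.

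Other measures differed in knockout 3 as well. The 5 hatching gland markers, read from 6 rows of the table, summed to 214 RPKM in knockout 3, 374 and 390 RPKM in knockouts 1 and 2, and 267 to 406 RPKM in the controls. Of the 6 rows 5 were lowest in knockout 3, among them the protease gene he1a at 15.0 RPKM against 91.1 to 198 RPKM elsewhere. The remaining row, cd63, was highest there at 162 RPKM against 95.9 to 132 RPKM, and made up most of the sum. The 17 exocrine pancreas markers summed to 208 RPKM in knockout 3 and to 20.8 to 39.6 RPKM in the other libraries, with 16 of them highest and ptf1a lowest in knockout 3. The 11 chondrocyte and notochord markers summed to 2046 RPKM in knockout 3, against 654 to 941 RPKM in the other libraries. The 14 photoreceptor markers summed to 1166 RPKM in knockout 3 and to 57.6 to 152 RPKM in the controls. In knockouts 1 and 2 they summed to 24.8 and 28.8 RPKM, below every control. All 11 and all 14 were highest in knockout 3. The 13 hepatocyte markers went both ways, with 4 highest and 5 lowest in knockout 3. Their sum, mostly apoa2, was 3566 RPKM in knockout 3, 4540 and 4673 RPKM in knockouts 1 and 2, and 4707 to 6331 RPKM in the controls, while fabp10a was at 45.6 RPKM in knockout 3 against 1.48 to 15.4 RPKM. Of the 9 leukocyte markers 4 were highest in knockout 3 and 1, lyz, lowest, at 31.0 RPKM against 96.1 to 140 RPKM. All 9 summed to 73.4 RPKM against 121 to 167 RPKM, and without lyz to 42.4 RPKM in knockout 3, 41.5 and 43.4 RPKM in knockouts 2 and 1, and 24.8 to 33.7 RPKM in the controls. Every marker found was detected in at least 1 library. The part of these cell types in the levels of the 10 genes was not tested.

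Exonic length moved with knockout 3 too. Over all tested genes the median of log2 CPM minus control mean in knockout 3 was -0.26 for genes of 500 to 1000 bases and 0.10 for genes of 3000 to 5000 bases. In knockouts 1 and 2 the same medians lay between -0.02 and 0.01. The members are 1513 to 4225 bases long, with sdf2l1 and manf the shortest and canx the longest. With each library's length trend removed, knockout 3 was at 0.74 for hspa5, 0.59 for herpud1, -0.36 for pdia4 and -0.82 for manf. Before the removal they were at 0.73, 0.57, -0.36 and -0.94. For sdf2l1 the value went from -0.22 to -0.07, and for canx from 0.26 to 0.18. Knockout 3 was then no longer the highest library for canx, and was highest for 3 members instead of 4.

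**Figure D4:**
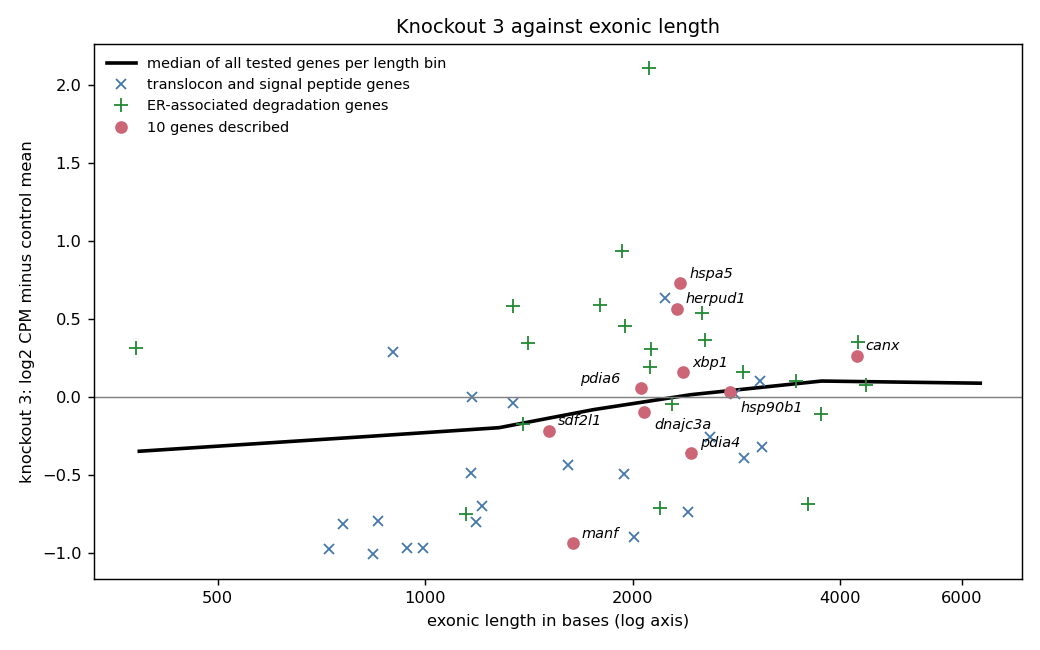
Log2 CPM of knockout 3 minus the control mean (vertical axis) against exonic length in bases (log axis) for the 10 genes (red, named), translocon and signal peptide genes (blue crosses) and ER-associated degradation genes (green plus signs). The black line, the median of all tested genes, rises from -0.35 to 0.10, and hspa5 and manf lie at 0.73 and -0.94, away from it.

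Ordered by mean level in controls, hsp90b1 was the most abundant at 159 ± 24.5 RPKM, followed by hspa5 at 120 ± 11.8 and xbp1 at 117 ± 12.4 (SD, n = 3 each). Then came canx at 80.3 ± 10.7, pdia6 at 55.3 ± 10.7, pdia4 at 53.5 ± 3.53, manf at 36.9 ± 6.43 and sdf2l1 at 21.9 ± 3.67 RPKM. The lowest were herpud1 at 13.8 ± 1.46 and dnajc3a at 13.6 ± 1.19 RPKM. In the controls the neighbours hspa5 and xbp1, pdia6 and pdia4, and herpud1 and dnajc3a overlapped, while every other pair of neighbours in the order was separate. Read counts per library were between 361 for dnajc3a and 8897 for hsp90b1. Counting error alone was thus at most 5.26% of a value (1 SD), and it was below the spread between the control libraries for each of the 10 genes.

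The members also differed in which of them varied together. Over the 6 libraries the log2 CPM of hspa5 and herpud1 correlated at r = 0.986, and at 0.967 without knockout 3. For xbp1 and canx r was 0.970, and 0.979 without it. For hsp90b1 and pdia4 it was 0.748, and 0.954 without knockout 3. For hspa5 and manf r was -0.864, and -0.515 without knockout 3. All values come from the same libraries, 2 of which nearly agree, and are given as a description. Of the non-members with a mean of at least 10 RPKM and a proper symbol, the 8 most like hspa5 were rps6ka3a, znf395a, neurod1, wdr1, prr33, cd9a, foxc1b and sgk1, at r = 0.988 to 0.992 over 6 libraries. They were picked by r from 6726 genes with that mean, counted before the filter on symbols, so values this high are partly a result of the choice. Without knockout 3 they were at 0.966 to 0.984, in libraries also used for the choice. None passed the threshold with 6 libraries. The gene sgk1, a kinase gene induced by serum and glucocorticoids, had group means of 14.0 ± 2.53 RPKM for controls and 33.4 ± 16.1 RPKM for knockouts (SD, n = 3 per group; edgeR adjusted p = 0.283). Without knockout 3 sgk1 passed the threshold, with a log2 fold change of 0.82 (edgeR adjusted p = 0.0485). That fit rests on the nearly equal knockouts 1 and 2, which may not count as independent samples. The gene was also picked for likeness to hspa5, which was higher in every knockout. Its group difference is thus partly a result of the choice.

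The deposited annotation terms were uneven over the members. The term for protein folding, carried by 112 genes of the table, was attached to hsp90b1, pdia4, pdia6 and canx. The term for the response to endoplasmic reticulum stress, carried by 16 genes, was attached to pdia4 and pdia6, while hspa5 and herpud1 lacked it. The 1 gene with the term for activation of transcription in the unfolded-protein response was xbp1.

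The rest of the pathway was read from 9 lists with 123 tested genes other than the members. Of these, 1 gene was called higher and 0 lower (all tested genes: 0.102% and 0.0146%). Positive log2 fold changes were seen in 67 of the 123, where 49.5% of all tested genes were positive. The median was 0.03 against -0.004 over all genes. The called gene was atf3, a stress-induced factor gene from the list of Perk and Atf4 output. At an unadjusted p under 0.05 there were 13 higher genes and 1 lower gene, 7 of the higher ones in the list of Perk and Atf4 output, where 4.06% of all tested genes were higher and 3.41% lower. Without knockout 3 the calls were 3 higher and 0 lower, where 0.789% of all tested genes were higher and 0.196% lower.

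Of the sensors and factors, 8 of 12 had positive values, with a median log2 fold change of 0.13. The Atf4-induced factor gene ddit3 (Chop) read 22.1, 20.4 and 17.5 RPKM across controls 1, 2 and 3, against 28.5, 27.3 and 38.0 RPKM across knockouts 1, 2 and 3. The knockouts were all above the controls, with a log2 fold change of 0.68 ± 0.18 (SE; edgeR adjusted p = 0.305). The Atf4 genes atf4a and atf4b and the protease gene mbtps2, whose product cuts Atf6, also had knockouts above controls, with log2 fold changes of 0.30, 0.22 and 0.28 (edgeR adjusted p = 0.712 to 0.768). With ddit3 they made 4 of 12 with knockouts above controls without overlap, against 7.62% of all tested genes. The sensor genes themselves are given although the rule for named genes did not select them. For atf6 the log2 fold change was 0.25, for eif2ak3, which codes for Perk, 0.12, and for ern1, which codes for Ire1, -0.34 (edgeR adjusted p = 0.805 to 0.899). Without knockout 3 the values of atf6, eif2ak3 and ern1 were -0.003, -0.05 and -0.13. The level of atf6 was 13.7 RPKM in knockout 3 against 8.43 to 9.12 RPKM in the other libraries. In knockout 3 the level of ern1 was 6.64 RPKM and that of eif2ak3 10.1 RPKM, against 7.31 to 19.3 and 7.16 to 8.13 RPKM in the other libraries.

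The list of Perk and Atf4 output had the highest median log2 fold change of the 9 lists, 0.74, and 9 of 9 genes were positive. They ranged from 0.08 for nupr1 and 0.27 for asns, both outside the rule for named genes, to 2.38 for atf3. The gene atf3 read 8.67, 6.05 and 6.61 RPKM in the control libraries, and 30.9, 31.4 and 46.2 RPKM in the knockout libraries. It rose 5.22-fold, with a 95% interval of 3.70-fold to 7.35-fold (edgeR adjusted p = 0.0143). The call was lost without control 2 (edgeR adjusted p = 0.247) or control 3 (edgeR adjusted p = 0.107), with log2 fold changes of 2.28 and 2.36. For ppp1r15a, whose product reverses the block on translation, trib3 and ddit4 the log2 fold changes were 0.90, 0.83 and 0.76 (edgeR adjusted p = 0.16 to 0.462). Without knockout 3 ppp1r15a passed the threshold (edgeR adjusted p = 0.0231). The knockout group was then only the nearly equal knockouts 1 and 2, which may not count as independent samples. With 6 libraries DESeq2 called both ppp1r15a and trib3 (DESeq2 adjusted p = 0.00171 and 0.0149). This median of 0.74 stood beside 0.12 for the 10 members, and the difference between the lists was not tested. The lists were chosen with earlier results of these data known, so the medians and counts of positive genes are a description only. Perk activity was not measured, so the list does not tell whether Perk or another signal set these levels.

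Other ER Hsp70 and Hsp90 helpers were split, with 5 of 10 positive and a median log2 fold change of 0.01. The J-protein gene dnajb9a, an Xbp1 target in mammals, measured 17.4, 9.87 and 7.28 RPKM in the control libraries; the knockout libraries measured 6.76, 7.63 and 6.46 RPKM, with a log2 fold change of -0.69 ± 0.32 (SE; edgeR adjusted p = 0.69). Control 1 was far above the other libraries, and control 3 lay within the knockout range. Without control 1 the log2 fold change was -0.26. The values of sdf2, dnajc1 and dnajb9b were -0.18, -0.12 and 0.26. Of the disulfide isomerases and oxidases, 8 of 15 were positive, with a median of 0.07. The glycoprotein isomerase gene pdia3 (0.30) and the oxidase gene ero1a (0.58) had all knockouts above all controls, 2 of 15 against 7.62% of all tested genes. The level of ero1a was low, at 1.34, 1.52 and 1.46 RPKM in controls and 1.55, 1.74 and 3.01 RPKM in knockouts. Its knockout 1 was thus only just above control 2. The genes qsox1 (0.39) and tmx4 (-0.30) did not separate. The edgeR adjusted p of pdia3, ero1a, qsox1 and tmx4 was 0.74 to 0.786. Without knockout 3 the log2 fold change of ero1a was 0.23, that of qsox1 0.09 and that of tmx4 -0.16.

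In the calnexin cycle 5 of 9 genes were positive, with a median log2 fold change of 0.09. The 4 with the smallest p were mogs (0.32), calr (-0.28), clgn (0.14) and uggt2 (-0.09), with edgeR adjusted p between 0.763 and 0.897. Without knockout 3 the log2 fold change of calr was -0.11. The genes calr and calr3a (the latter outside the rule for named genes), related copies of a soluble lectin chaperone, were lowest in knockout 3, at 58.1 and 112 RPKM against 84.0 to 104 and 176 to 190 RPKM in the other libraries. Of the genes for ER-associated degradation other than herpud1, 15 of 21 were positive, with a median of 0.05. The pore gene derl3 had control values of 2.86, 2.69 and 2.34 RPKM and knockout values of 3.73, 3.94 and 4.95 RPKM, a log2 fold change of 0.72 ± 0.22 (SE; edgeR adjusted p = 0.462). Those of faf2, ube2j2 and os9 were 0.33, 0.47 and 0.28, and without knockout 3 faf2 was at 0.19 and os9 at 0.12.

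Genes of the translocon and signal peptide processing, through which proteins enter the ER, had mostly negative values, with 4 of 22 positive and a median log2 fold change of -0.17. None was called. The 4 with the smallest p were srp19, of the signal recognition particle, and spcs1, sec11a and spcs3, of the signal peptidase, with log2 fold changes of -0.45, -0.40, -0.46 and -0.39 (edgeR adjusted p = 0.676 to 0.713). Over the whole list, 4 of 22 genes had knockouts below controls without overlap and 0 had them above. Over all tested genes the shares were 7.44% and 7.62%. Those 4 genes are the same 4 that were picked by smallest p. Without knockout 3 their log2 fold changes were -0.27 to -0.22. Medians relative to the controls were -0.04, -0.07 and -0.49 in knockouts 1, 2 and 3. Knockout 3 was below every other library for 16 of the 22 genes, and for 31.9% of all tested genes. In the other lists this ran from 0 of 9 for Perk and Atf4 output to 6 of 10 for ER Hsp70 and Hsp90 helpers. In the calnexin cycle it was 5 of 9. The translocon and signal peptide genes are short, with a median of 1277 bases against 2368 over all tested genes. With the length trend removed the median of knockout 3 was -0.43. It was then lowest for 16 of 22, and for 6140 of all 20555 tested genes. The part of length in these values was not tested. Without knockout 3 the median log2 fold change of the list was -0.07, with 9 of 22 positive.

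The COPII coat, which carries folded proteins out of the ER, had 5 of 11 positive values and a median log2 fold change of -0.04. The coat gene sec23b read 23.9, 15.7 and 17.7 RPKM in the control libraries against 27.8, 27.4 and 38.3 RPKM in the knockout libraries, with a log2 fold change of 0.74 ± 0.21 (SE; edgeR adjusted p = 0.362). The values of sec31b, sec23a and sar1ab were -0.26, -0.20 and -0.31, and without knockout 3 sec23a and sar1ab were both at -0.09. In collagen folding, 8 of 14 were positive, with a median of 0.11. The gene p4ha1b, for a subunit of the prolyl hydroxylase that stabilises collagen, read 11.8, 9.75 and 10.3 RPKM across controls 1, 2 and 3, against 18.9, 19.8 and 25.1 RPKM across knockouts 1, 2 and 3. The knockouts lay well above the controls. With 6 libraries the log2 fold change of 1.04 ± 0.17 (SE) missed the threshold (edgeR adjusted p = 0.0672). Without knockout 3 it was 0.91 and passed (edgeR adjusted p = 0.0115). That fit rests on the nearly equal knockouts 1 and 2, which may not count as independent samples. DESeq2 with 6 libraries also called p4ha1b (DESeq2 adjusted p = 6.60e-05). The values of p4ha2, plod1a and fkbp7 were 0.72, 0.42 and -0.50, and without knockout 3 they were 0.29, 0.27 and -0.31.

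**Figure D5:**
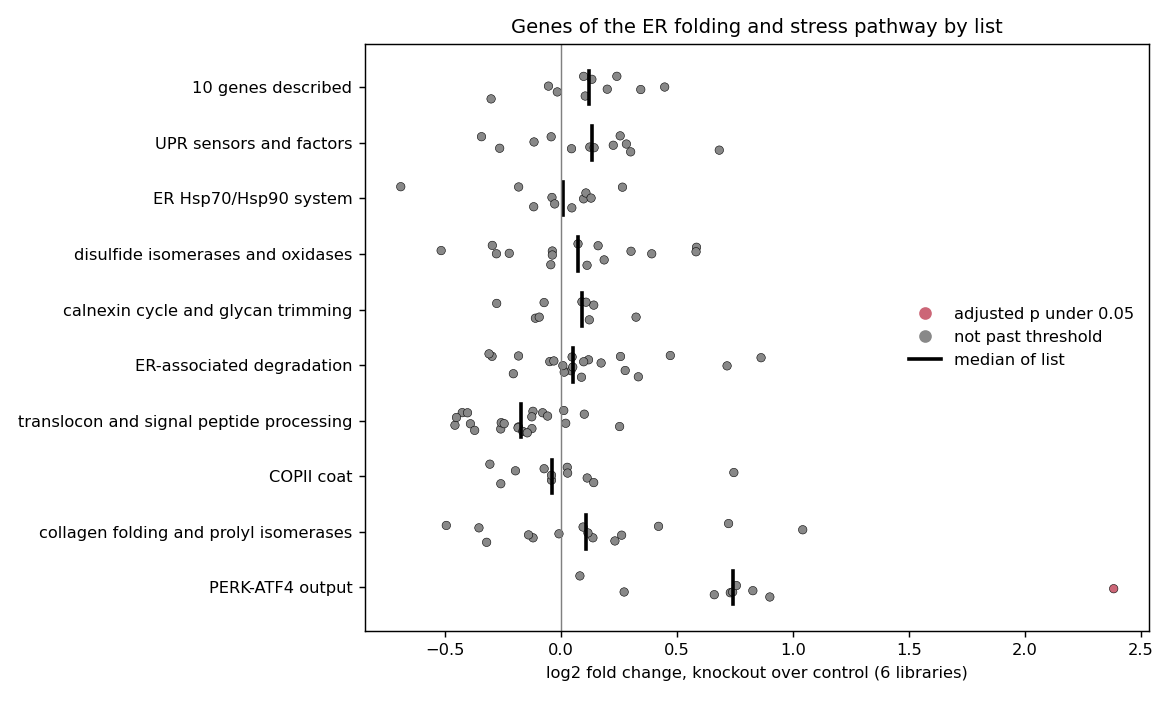
Log2 fold change of knockout over control for the 10 genes and the 9 lists of the pathway, 1 point per gene, with the median of each list as a black line. One gene, atf3, passed an adjusted p of 0.05 (red), and the list medians run from -0.17 for translocon genes to 0.74 for Perk and Atf4 output.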

How the data were processed

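The tools named per the submitters' processing notes are HTSeq 0.6.1, HISAT2 2.0.1, Trimmomatic 0.30 and DESeq, and the genome build is Zv9. Their settings and the use of strand are not given in the sources used here; overlapping and antisense partners therefore cannot be separated. The deposited read counts per gene and library are whole numbers, not normalized by the authors. The authors' RPKM values, per the file headers, equal these counts per exonic length and library total within 0.005. Another 6 columns with values of single samples match none of the 6 libraries and were left out.

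Counts of the whole table were filtered with filterByExpr, scaled by TMM and tested in R 4.3.3 with the quasi-likelihood test of edgeR 4.0.16 (robust fit), using Benjamini-Hochberg adjustment over 20555 genes and a threshold of 0.05. Standard errors come from the F statistic, and 95% intervals from these and the test's degrees of freedom. Library deviations are log2 CPM after TMM scaling, with a prior count of 2. The members, lists and tests were chosen with earlier results of these data known. Named genes are the 10 members, called genes and the 4 smallest p in each list, and the 8 genes most like hspa5; others are said to be outside the rule or illustrate a sum. The fit was run on simulated counts of independent libraries, without an outlying library or a nearly equal pair. That run does not show how the test behaves on these libraries. The files used here hold no sequences or coordinates. DESeq2 1.42.0 and other alternatives are given in the closing section.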

Additional observations from a re-analysis of the deposited data

How the results depend on the processing

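None of the 10 genes was called under any alternative: DESeq2, its size factors within edgeR, genes kept from 2 RPKM on average, no filter, the replicate block, each library left out, knockouts 1 and 2 summed, and the length trend removed, the last chosen after seeing the data. The median log2 fold change of the members was 0.07 to 0.20. Of 130 refitted values of single members 122 kept their direction and 8 reversed, all uncalled, and the cause was not tested. For pdia4 these were -0.0079 without knockout 1, -0.0004 without knockout 2 (the leave-one-out range was -0.0079 to 0.2815) and -0.0013 with the pair summed. For pdia6 they were 0.0065 with the replicate block and 0.04 and 0.12 without controls 1 and 3 (range -0.1709 to 0.1154). For sdf2l1 they were 0.0579 without control 2 and 0.03 without knockout 3 (range -0.1691 to 0.0579). Of 467 refitted values of the 36 pathway genes picked by the rule for named genes 1 reversed. It was dnajc1 without knockout 3 (0.0198, in a leave-one-out range of -0.207 to 0.0198). Pathway genes named outside the rule were not part of that count. Of them atf6 (-0.003), eif2ak3 (-0.05) and calr3a (0.10) also changed sign without knockout 3. Pathway genes called higher were 2 with no filter, 4 with DESeq2 and 0 to 3 with a library left out. All genes called higher and lower were 47 and 6 with no filter and 188 and 46 with DESeq2. With a library left out they were 0 to 165 and 0 to 41, lowest without control 2 and highest without knockout 3. Lower calls were 1 with the replicate block and 0 with the pair summed. Deviations of same-numbered libraries correlated at -0.06 to -0.00. With knockouts 1 and 2 nearly equal and knockout 3 apart, these correlations could not show whether the numbers mark pairs. The main fit did not take the numbers as pairs, and the replicate block did. Counting error limits single values of dnajc3a, herpud1, sdf2l1 and manf to about 5%.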
